A study of Mus musculus with 61 samples.

Results

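Of the 23927 gene rows of the deposited table, 7 were described here: 4 receptors of the tumour necrosis factor receptor family (Eda2r, Fas, Tnfrsf10b and Tnfrsf1a) and 3 proteins that act directly beneath such receptors (Fadd, Ripk1 and Casp8). They were chosen by name as death receptor pathway genes, and all 7 had a row. Single oocytes, the female germ cells, and single granulosa cells, the somatic cells that surround them, came from ovaries of wild-type (WT) CD-1 mice, an outbred stock, at postnatal day 5. The table held 16 oocytes and 16 granulosa cells from mice given solvent, called control here, and 16 oocytes and 13 granulosa cells from mice given doxorubicin, a drug that damages DNA. Both were given by intraperitoneal injection and the cells were taken 6 hours later. The labels give the dose as 10 in a unit that is not one of dose. The labels tie no cell to an animal, so each group counted as 1 sample, no difference was tested, and all intervals are 95% intervals that cover counting error only. PCR reads without molecular identifiers are not independent molecules.

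Death receptors are membrane proteins that carry signals from ligands of the tumour necrosis factor family. When the ligand binds Fas or the TRAIL receptor encoded by Tnfrsf10b, the death domain of the receptor recruits the adaptor FADD, which brings in the protease caspase-8, and caspase-8 then cleaves downstream caspases. The TNF receptor encoded by Tnfrsf1a first recruits the kinase RIPK1, from which either NF-kB signalling or cell death can follow. Eda2r encodes a receptor for a splice form of ectodysplasin, which signals through TRAF proteins and lacks a death domain. Eda2r, Fas and Tnfrsf10b are known targets of the p53 family of transcription factors, which respond to DNA damage.

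Total counts per cell ran from 6834594 to 31262609. Expression is given as CPM, the counts of a gene in every 1000000 counts of the cell, or of the summed cells of a group. A gene counted as found in a cell at 5 reads or more. The summed level of 19 oocyte markers ran from 25358 to 60280 CPM in control oocytes, from 18038 to 64697 in doxorubicin oocytes, from 473 to 17366 in control granulosa cells and from 374 to 42883 in doxorubicin granulosa cells. The summed level of 19 granulosa markers ran from 3.43 to 797 CPM, from 9.38 to 3186 CPM, from 455 to 13749 CPM and from 937 to 10458 CPM in the same order. The oocyte sum exceeded the granulosa sum in all 32 oocytes, in 6 of 16 control granulosa cells and in 8 of 13 doxorubicin granulosa cells, so many libraries labelled granulosa carried oocyte transcripts. Oog1 had 0 counts in both granulosa groups and Oosp1 in the control one, while no granulosa marker was at 0 in any group. Stroma markers reached 13316 CPM in control granulosa cell 13.

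The promoters of 3 members are printed because these genes behaved differently in oocytes: Eda2r and Fas were scarce or not found without the drug and present after it, and Fadd was found in every oocyte of both groups. Each line holds the 220 bases from 250 to 31 bases before the gene start, 5′ to 3′ on the gene's strand, with every CG dinucleotide in capitals. The sequences are from RefSeq (GRCm38.p6), at chrX:97377240-97377459 (minus strand) for Eda2r, chr19:34290409-34290628 (plus strand) for Fas and chr7:144582472-144582691 (minus strand) for Fadd.
Eda2r: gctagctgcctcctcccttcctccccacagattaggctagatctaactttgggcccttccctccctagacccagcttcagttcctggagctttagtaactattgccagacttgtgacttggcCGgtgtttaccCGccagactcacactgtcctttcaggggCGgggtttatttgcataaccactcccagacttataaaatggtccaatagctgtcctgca
Fas: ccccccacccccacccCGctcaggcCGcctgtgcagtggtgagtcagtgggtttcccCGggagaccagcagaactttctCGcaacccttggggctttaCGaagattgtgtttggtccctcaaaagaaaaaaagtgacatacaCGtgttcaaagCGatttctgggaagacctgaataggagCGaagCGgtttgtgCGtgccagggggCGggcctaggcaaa
Fadd: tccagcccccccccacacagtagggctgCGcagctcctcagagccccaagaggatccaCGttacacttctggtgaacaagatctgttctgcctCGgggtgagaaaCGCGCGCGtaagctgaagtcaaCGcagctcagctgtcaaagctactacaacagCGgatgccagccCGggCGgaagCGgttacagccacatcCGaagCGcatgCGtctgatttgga
These stretches hold 3, 11 and 15 CG dinucleotides. Over the whole window of 300 bases, which ends 50 bases after the start, the promoters of Eda2r and Casp8 held 5 CG each, those of Tnfrsf1a, Fas and Fadd held 11, 14 and 22, and the pair listed for Ripk1 held 22 and 36. The median over 32851 promoters was 7, and 43.6% had 5 or fewer. A search for TATAAA on both strands found it in 1 of the 7 member promoters, that of Eda2r, where it starts at -58. It occurs in 13.6% of all promoters. A motif of 10 bases, which is a part of the p53 element and not the whole of it, was searched on both strands. This motif was in 0 of the 7 member promoters and in 8.36% of all promoters. It was in 3 of 5 promoters of the known p53 targets Cdkn1a, Mdm2, Ccng1 and Phlda3. The whole p53 element and bases outside the window of 300 were not searched. Whether the members carry a p53 element was therefore not tested. Promoters were matched by symbol for 6 of the 7 members.

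In oocytes, the groups differed most in the receptors. Eda2r was high in most doxorubicin oocytes, Fas was found in a few of them and in no control oocyte, and Tnfrsf10b was lower, while Fadd and Ripk1 were at similar levels in both groups. Differences are given as the log2 ratio of group CPM, doxorubicin over control, and genes at 5 CPM or more in at least 1 of the groups were counted. Of the 4 members that reached this level, 1 was at least 2-fold higher (Eda2r) and 0 were at least 2-fold lower, where 6.3% of all 11119 such genes were 2-fold higher and 2.45% were 2-fold lower. The median log2 ratio was 0.54 over these 4 members and 0.01 over all genes.

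**Figure D1:**
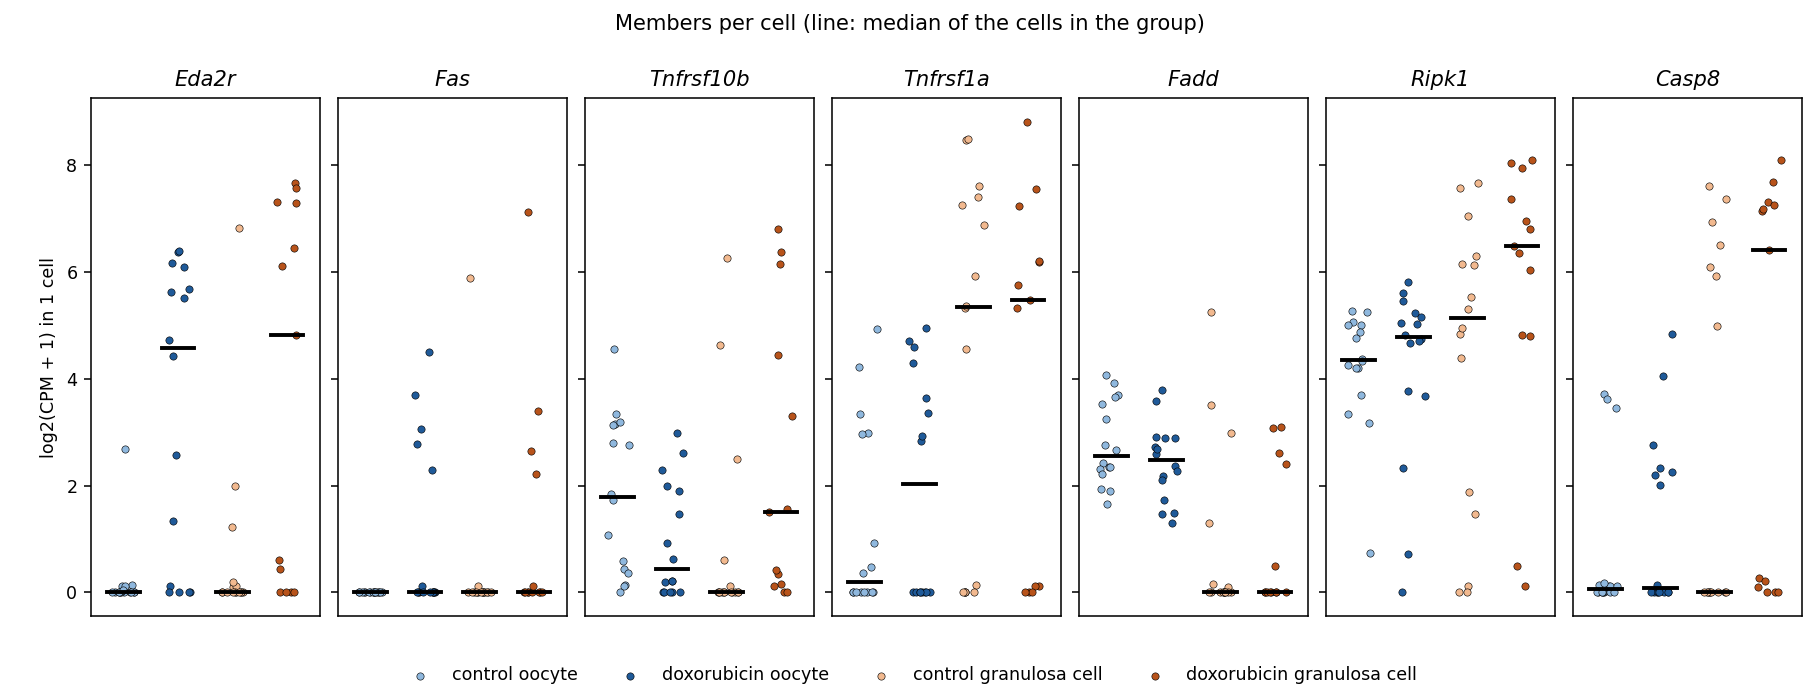
Level of each member in each of the 61 cells, as log2(CPM + 1), by group; each point is 1 cell and each line the median of the cells. Eda2r lies at or near 0 in 15 of 16 control oocytes and reaches 82.9 CPM in doxorubicin oocytes, whereas the ranges of Fadd in the oocyte groups largely overlap.

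Eda2r (chromosome X, 97333840 to 97377216, minus strand, GRCm38) had 60 counts over the control oocytes and 5650 over the doxorubicin oocytes. Control oocyte 9 stood at 5.43 CPM and held 93.3% of the control counts, and the other 15 were at 0.103 CPM or less. In doxorubicin oocytes the lowest cell was at 0, the median at 23.0 and the highest, replicate 11, at 82.9 CPM. The groups overlapped, but 9 of 16 doxorubicin oocytes lay above the highest control oocyte. Of all genes, 1.96% had 8 or more doxorubicin oocytes above the highest control oocyte. The group levels were 0.307 CPM (0.234 to 0.395) in control and 31.6 CPM (30.8 to 32.4) in doxorubicin oocytes. The log2 ratio was 6.69 (6.32 to 7.08), and it was 10.52 without control oocyte 9. At least 5 reads were found in 1 of 16 control oocytes, a share of 6.25% (exact binomial, 0.158% to 30.2%), and in 11 of 16 doxorubicin oocytes, a share of 68.8% (41.3% to 89.0%). After each cell was thinned to 1000000 counts, these were 1 and 10 cells. Eda2r and the granulosa marker sum went together over the 16 doxorubicin oocytes, with a Spearman rho of 0.64. Among oocytes under 200 CPM of granulosa markers, 10 control and 11 doxorubicin cells, Eda2r had 2 counts in the control cells (0.0184 CPM) and 3081 in the doxorubicin cells (24.6 CPM), which gives a counting interval of 8.53 to 13.43 for the log2 ratio. Control oocyte 9, which held most control counts, is not among these cells, and the part of the granulosa transcripts in the difference was not tested.

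Eda2r and Cdkn1a were not high in exactly the same oocytes. Cdkn1a, which encodes a cell cycle inhibitor, was above its highest control oocyte in 12 of 16 doxorubicin oocytes, Eda2r in 9, and both in 8. Doxorubicin oocyte 7 had 82.2 CPM of Eda2r and 7.90 CPM of Cdkn1a. Doxorubicin oocyte 12 had the reverse, 1.53 CPM of Eda2r and 269 CPM of Cdkn1a. The 16 doxorubicin oocytes share a batch label, and their total counts ran from 8899079 to 13971485. Over them, Spearman's rho of Eda2r was 0.83 with Phlda3, 0.79 with the p53 ubiquitin ligase gene Mdm2, 0.72 with Ccng1 and 0.43 with Cdkn1a. Its rho with the total count of the cell was 0.20. Over the 13 doxorubicin granulosa cells, rho of Eda2r was 0.06 with Phlda3, 0.41 with Mdm2, 0.04 with Ccng1 and 0.16 with Cdkn1a.

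**Figure D2:**
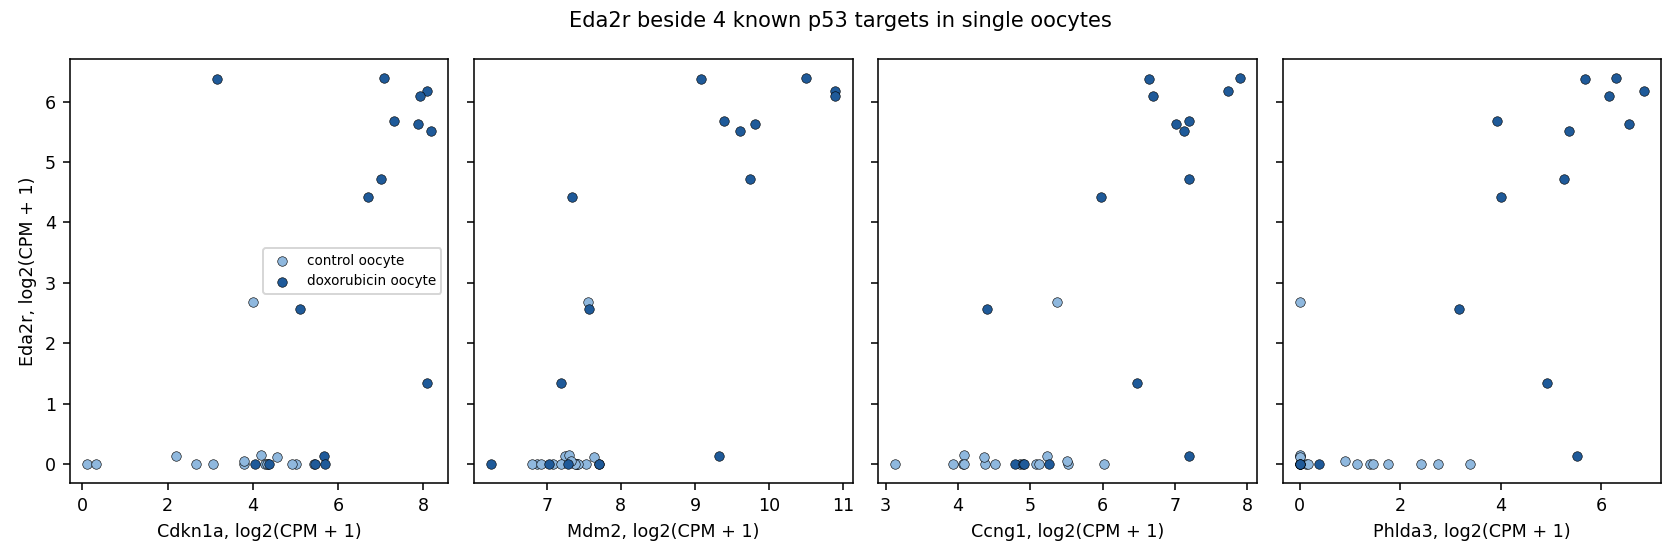
Eda2r against Cdkn1a, Mdm2, Ccng1 and Phlda3 in single oocytes, both axes as log2(CPM + 1); each point is 1 of 16 control or 16 doxorubicin oocytes. Of the 9 doxorubicin oocytes above the highest control oocyte in Eda2r, 8 are also above it in Mdm2, 8 in Ccng1 and 9 in Phlda3; replicate 6, with 161 CPM of Mdm2 and 62.2 CPM of Ccng1, is within the control range of both. A single doxorubicin oocyte high in Eda2r (82.2 CPM) is within the control range in Cdkn1a (7.90 CPM).

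Fas (chromosome 19, 34290666 to 34327772, plus strand) had 0 counts over the 16 control oocytes, which allows up to 0.0153 CPM at 3 counts over the group. In doxorubicin oocytes the lowest cell and the median were at 0 and the highest, replicate 4, was at 21.7 CPM. The 5 cells with at least 5 reads were replicates 4, 6, 9, 11 and 13, at 21.7, 3.89, 11.9, 5.90 and 7.39 CPM. Fas was thus found in a minority of the treated oocytes, and 4 of these 5 (4, 6, 9 and 11) also had Eda2r. Eda2r was found in 11 of all 16 doxorubicin oocytes, and its rho with Fas over them was 0.34. The group level of Fas, 3.17 CPM (2.92 to 3.44), gave a log2 ratio of at least 7.69, which was at least 6.81 without replicate 4. That cell held 49.6% of the Fas counts, and the raw data of its library are stated to be lost. The share with at least 5 reads was 31.3% of doxorubicin oocytes (11.02% to 58.7%), against 0 of 16 control oocytes (up to 20.6%), and 3 cells were left after thinning. Among 3626 genes with fewer than 3 counts over the control oocytes, 1.85% had 5 reads or more in at least 5 doxorubicin oocytes. Replicates 9 and 11 carried 3186 and 2672 CPM of granulosa markers, and among oocytes under 200 CPM of them the log2 ratio of Fas was at least 6.87.

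Tnfrsf10b (chromosome 14, 69767472 to 69784411, plus strand) went the other way. Control oocytes ran from 0 over a median of 2.46 to 22.5 CPM, and doxorubicin oocytes from 0 over a median of 0.350 to 6.87 CPM. The groups overlapped, and the highest value belonged to control oocyte 2. The group levels were 4.36 CPM (4.07 to 4.66) and 1.56 CPM (1.38 to 1.76). The log2 ratio was -1.48 (-1.68 to -1.29) over all cells and -1.02 when control oocyte 2 was left out. At least 5 reads were found in 12 control and 8 doxorubicin oocytes, and in 7 and 3 after thinning. Both group levels were under 5 CPM, so the gene is not among those counted above.

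Tnfrsf1a (chromosome 6, 125349362 to 125362484, plus strand) was found in 6 control and 8 doxorubicin oocytes. Control oocytes ran from 0 over a median of 0.145 to 29.7 CPM, and doxorubicin oocytes from 0 over a median of 3.08 to 30.0 CPM. Both groups held cells at 0 and cells near the same upper level. The group levels were 4.14 and 7.90 CPM, with a log2 ratio of 0.93 (0.81 to 1.06). Leaving out control oocyte 4 gave 1.60, and leaving out doxorubicin oocyte 10 gave 0.65. Tnfrsf1a went with markers of other cells: over 16 oocytes, rho with the stroma marker sum was 0.74 in the control and 0.62 in the doxorubicin group, and rho with the granulosa marker sum was 0.45 and 0.71. Stroma sums ran from 0.834 to 917 CPM and from 0.320 to 1882 CPM in these groups. Among oocytes under 200 CPM of granulosa markers the log2 ratio of Tnfrsf1a was -0.24. Control oocyte 4, with 917 CPM of stroma markers, stayed among these cells and held 328 of their 346 control counts. That value therefore rested largely on 1 control cell.

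The adaptors differed less. Fadd (chromosome 7, 144577318 to 144582463, minus strand) was found in all 16 control and all 16 doxorubicin oocytes. It ran from 2.14 over a median of 4.87 to 15.8 CPM in control and from 1.46 over a median of 4.60 to 12.8 CPM in doxorubicin oocytes. The log2 ratio was -0.38 (-0.51 to -0.26), and it stayed between -0.54 and -0.25 when each cell was left out in turn. At 1000000 counts a cell it was found in 8 and 5 oocytes, so its presence in every oocyte needed the full depth. Fadd shares 239 of its 3903 exonic bases with the antisense gene Faddos, and the counting is not stated to use strand, so reads of the pair cannot be told apart.

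Ripk1 (chromosome 13, 34002363 to 34037147, plus strand) had the highest level per transcript length of the adaptors in both oocyte groups. Control oocytes ran from 0.663 over a median of 19.4 to 37.4 CPM, and doxorubicin oocytes from 0 over a median of 26.6 to 55.4 CPM. The ranges overlapped over nearly their whole width, and the log2 ratio was 0.15 (0.10 to 0.21), with 0.05 to 0.34 on leaving out each cell. Ripk1 was found in 16 control and 15 doxorubicin oocytes, and in 15 and 14 after thinning. Ripk1 shares 241 of 8344 exonic bases with Serpinb6a on the opposite strand and 511 with the pseudogene Gm17084, which makes its level uncertain to the extent that their reads were counted here.

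Casp8 (chromosome 1, 58795374 to 58847503, plus strand) was found in 3 control oocytes (replicates 3, 9 and 16) and in 7 doxorubicin oocytes (2, 3, 4, 6, 9, 12 and 14). The control oocytes ran from 0 over a median of 0.0444 to 12.1 CPM, and the doxorubicin oocytes from 0 over a median of 0.0536 to 27.8 CPM. More doxorubicin than control cells had the transcript, though after thinning it was left in 2 doxorubicin and 3 control oocytes. The group levels were 3.0 and 4.01 CPM, with a log2 ratio of 0.42 (0.26 to 0.58). Its sign rested on single cells, with -0.30 when doxorubicin oocyte 12 was left out and 1.26 when control oocyte 16 was. The 3 control oocytes with Casp8 carried 210 to 359 CPM of granulosa markers. Among oocytes under 200 CPM of those markers, which leaves out these 3, Casp8 had 4 counts in the control and 371 in the doxorubicin cells, and the log2 ratio was 6.33 (4.96 to 8.21).

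The members were also counted within cells. A receptor with a death domain (Fas, Tnfrsf10b or Tnfrsf1a) was found together with Fadd and Casp8 in 3 of 16 control oocytes (18.8%, with an interval of 4.05% to 45.7%) and in 6 of 16 doxorubicin ones (37.5%, 15.2% to 64.6%). These intervals overlap. Fadd was found in all 32 oocytes, so at full depth it did not limit these counts. They followed Casp8, found in 3 control and 7 doxorubicin oocytes, of which only doxorubicin oocyte 14 lacked such a receptor. After thinning, Casp8 was left in 3 control and 2 doxorubicin oocytes, and Fadd in 8 and 5. The higher count in doxorubicin oocytes therefore needed the full depth, and the joint count after thinning was not made. None of the 4 receptors was found in 3 control and 2 doxorubicin oocytes. Casp8 occurred with Cflar, which encodes its inhibitor c-FLIP, in 3 of 3 control and 2 of 7 doxorubicin oocytes with Casp8. The 3 control oocytes carried 210 to 359 CPM of granulosa markers. The 2 doxorubicin oocytes, replicates 9 and 12, carried 3186 and 2077 CPM. The part of granulosa transcripts in these counts was not tested.

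**Figure D3:**
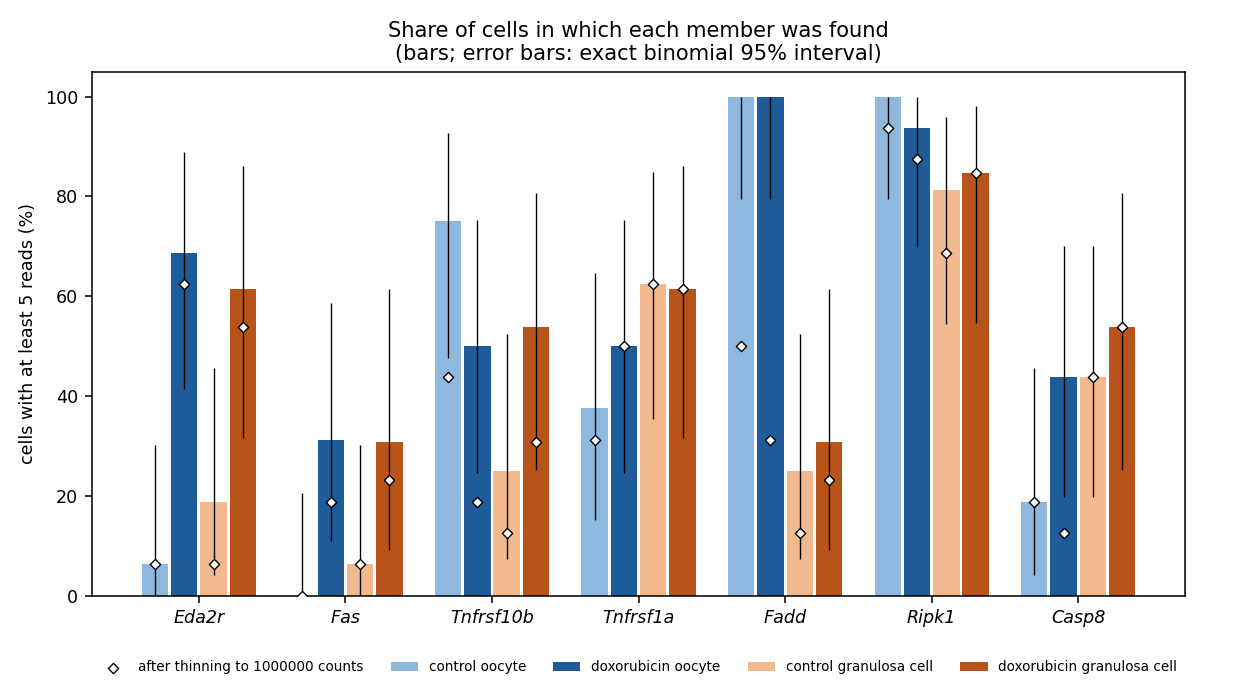
Percent of the cells of each group with at least 5 reads of each member (bars), with exact binomial 95% intervals (error bars) and the percent after thinning each cell to 1000000 counts (diamonds). Eda2r goes from 6.25% to 68.8% of oocytes, and Fadd stands at 100% in both oocyte groups at full depth but at 8 and 5 of 16 cells after thinning.

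In granulosa cells, 5 of the 6 members at 5 CPM or more were at least 2-fold higher in the doxorubicin group (Eda2r, Fas, Tnfrsf10b, Ripk1 and Casp8) and 0 were at least 2-fold lower. Here 20.6% of all 12194 such genes were 2-fold higher and 20% were 2-fold lower, a far broader spread than in oocytes. The median log2 ratio was 1.36 over the 6 members and -0.03 over all genes. Of 16 oocyte markers at this level all 16 were at least 2-fold higher in the doxorubicin granulosa group, and the part of these transcripts in the members' differences was not tested. With only the cells in which the granulosa sum exceeded the oocyte sum (10 control, 5 doxorubicin), 3 members were at least 2-fold higher: Eda2r, Tnfrsf10b and Ripk1.

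Eda2r ran from 0 over a median of 0 to 112 CPM in control granulosa cells and from 0 over a median of 27.3 to 204 CPM in doxorubicin granulosa cells. A single cell, control granulosa cell 2, held 96.2% of the control counts. It carried 8342 CPM of stroma markers and 455 CPM of granulosa markers. Group CPM was 8.50 and 67.6. The log2 ratio was 2.99 (2.91 to 3.07) with that cell and 7.60 without it. At least 5 reads were found in 3 of 16 control and 8 of 13 doxorubicin cells, and in 1 and 7 after thinning. Over the 13 doxorubicin granulosa cells rho with the oocyte marker sum was -0.24. In cells with more granulosa than oocyte markers the log2 ratio was 8.77 (8.14 to 9.48), but control granulosa cell 2 is not among these cells either, and the part of the oocyte transcripts was not tested.

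Fas rested on 1 cell in each group. Control granulosa cell 4 had 58.0 CPM and 99.9% of the control counts, and doxorubicin granulosa cell 2 had 139 CPM and 88.4% of the counts of its group. All other cells were at 9.50 CPM or less, and 1 of 16 control and 4 of 13 doxorubicin cells had at least 5 reads. The log2 ratio of 1.67 (1.54 to 1.80) became -1.32 without doxorubicin granulosa cell 2. Without control granulosa cell 4 the control group kept 1 count, with a counting interval of 8.48 to 16.26, so the direction depended on which cell was left out. Doxorubicin granulosa cell 2 carried 5352 CPM of oocyte and 1781 CPM of granulosa markers, and control granulosa cell 4 carried 2473 and 4930 CPM. Eda2r and Fas were found in the same cell in 3 doxorubicin granulosa cells (2, 10 and 13) and in 0 of 16 control ones.

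Tnfrsf10b ran from 0 over a median of 0 to 75.8 CPM in control and from 0 over a median of 1.85 to 111 CPM in doxorubicin granulosa cells. It was found in 4 of 16 and 7 of 13 cells, and in 2 and 4 after thinning, and the groups overlapped. The group levels were 6.30 and 23.6 CPM, with a log2 ratio of 1.90 (1.81 to 2.0), opposite in sign to that in oocytes. Control granulosa cell 11 held 72.4% of the control counts, and without it the ratio was 3.67.

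Tnfrsf1a was the member with the highest group level per transcript length in granulosa cells. Control cells ran from 0 over a median of 39.5 to 360 CPM and doxorubicin cells from 0 over a median of 43.7 to 450 CPM. It was found in 10 of 16 and 8 of 13 cells, and the ranges of the groups largely overlapped. The log2 ratio was -0.21 (-0.24 to -0.17), with -0.87 without doxorubicin granulosa cell 2 and 0.12 without control granulosa cell 3. It was -0.88 over cells with more granulosa than oocyte markers. Over cells whose granulosa markers summed to 5000 CPM or more it was -1.82, from 60.5 CPM in control and 17.2 CPM in doxorubicin cells.

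Ripk1 ran from 0 over a median of 34.2 to 201 CPM in control and from 0.0882 over a median of 88.7 to 274 CPM in doxorubicin granulosa cells. The groups overlapped, and 3 doxorubicin cells lay above the highest control cell. The highest, replicate 15, also carried 33489 CPM of blood and immune markers. Group CPM was 54.2 in control and 112 in doxorubicin cells, and the log2 ratio was 1.04 (1.01 to 1.08), with 0.87 to 1.31 on leaving out each cell. Casp8 split both groups into cells with much of it and cells with next to none: 7 of 16 control cells had 30.7 to 194 CPM and 7 of 13 doxorubicin cells had 83.8 to 273 CPM. All the other granulosa cells were at 0.208 CPM or less. Its group levels were 44.4 and 90.0 CPM, and the log2 ratio was 1.02 (0.98 to 1.06). It was 0.0024 over cells with more granulosa than oocyte markers, and -0.74 over cells whose granulosa markers summed to 5000 CPM or more. Fadd was found in 4 cells of each group, with group levels of 3.78 and 2.04 CPM and -0.89 (-1.09 to -0.69) as the log2 ratio. Leaving out control granulosa cell 3 turned this to 0.66.

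**Figure D4:**
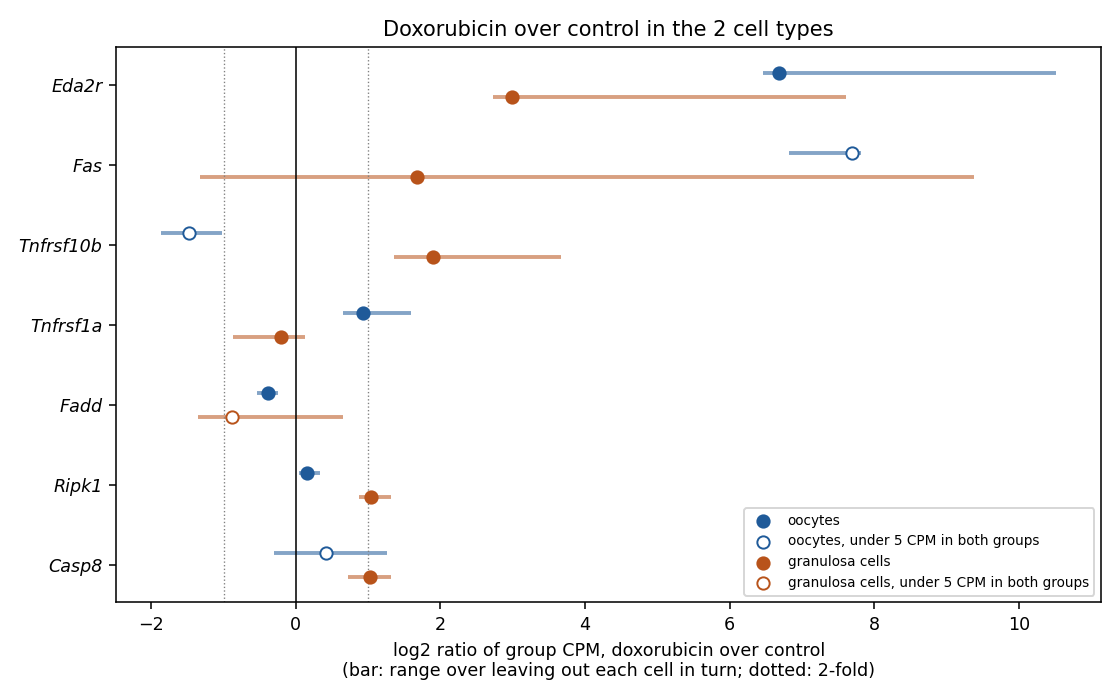
Log2 ratio of group CPM, doxorubicin over control, for the 7 members in oocytes and granulosa cells (points; open where both groups are under 5 CPM), with the range over leaving out each cell (bars) and dotted lines at 2-fold. Eda2r is past 2-fold in both cell types under every such omission, Tnfrsf10b lies on opposite sides of 0, and the bar of Fas in granulosa cells runs from -1.32 to 9.38, the latter with the 1 remaining control count set to the floor of 3.

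Without the drug, the cell types differed in which members they held. Of the 6 members at 5 CPM or more, 0 were at least 2-fold higher and 4 at least 2-fold lower in control oocytes, with control granulosa cells as the reference (Eda2r, Tnfrsf1a, Ripk1 and Casp8). Over all 12373 genes at this level 29% were 2-fold higher and 31.3% were 2-fold lower. Tnfrsf1a was at 4.14 CPM in oocytes and 93.9 CPM in granulosa cells, which gave a log2 ratio of -4.50 (-4.61 to -4.40), with -5.17 to -4.17 on leaving out each cell. Casp8 was at 3.0 and 44.4 CPM, which gave -3.89 (-4.01 to -3.77). Ripk1 was at -1.23 (-1.28 to -1.18), and at -0.96 if control granulosa cell 4 was left out. The ratio of Eda2r, -4.79, was -0.18 without control granulosa cell 2, so that difference rested on 1 cell. Fas, with 0 counts in control oocytes, had at most -7.92, and without control granulosa cell 4 the control granulosa cells kept 1 count, too few for a ratio. Tnfrsf10b had -0.53, which was 1.23 without control granulosa cell 11. Fadd was the 1 member above 0 at 5 CPM or more, with 0.82 (0.68 to 0.95), and 2.36 without control granulosa cell 3.

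Levels of different genes were compared only per length, as group CPM per kilobase of the longest transcript. In control oocytes the order was Ripk1 (3.57), Tnfrsf1a (1.92), Fadd (1.70), Tnfrsf10b (1.37), Casp8 (1.16), Eda2r (0.0645) and Fas (0). In doxorubicin oocytes Eda2r came first, at 6.65, ahead of Ripk1 at 3.97, Tnfrsf1a at 3.67, Fas at 2.14, Casp8 at 1.55, Fadd at 1.31 and Tnfrsf10b at 0.491. Eda2r thus went from the sixth place to the first. In control granulosa cells the order began with Tnfrsf1a (43.6), Casp8 (17.2) and Ripk1 (8.37) and ended with Fadd (0.969). In doxorubicin granulosa cells it began with Tnfrsf1a (37.8), Casp8 (34.8), Ripk1 (17.3) and Eda2r (14.2) and again ended with Fadd (0.523). The cells' ranges overlapped between all neighbours in these orders.

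The other genes of the pathway were taken from a list of 47, of which 42 had a row, and Fasl, Tnf, Tnfsf15, Tnfrsf25 and Edar had none. In oocytes 27 of the 42 were at 5 CPM or more. Of these, 5 were at least 2-fold higher (Casp6, Pea15a, Pidd1, Tnfaip3 and Traf3) and 3 at least 2-fold lower (Eda, Tnfrsf19 and Traf6), with a median log2 ratio of 0.10. Over all 11119 genes at this level 6.3% were 2-fold higher and 2.45% were 2-fold lower, with a median of 0.01. Pea15a and Tnfrsf19 were named after their values were seen, since leaving out 1 cell brought them to 0.84 and -0.54. Among the ligands, Eda, which encodes ectodysplasin, ran from 0 over a median of 3.14 to 40.1 CPM in control and from 0 over a median of 0 to 17.6 CPM in doxorubicin oocytes. It was found in 11 and 5 of 16 cells. The group levels of 13.8 and 1.89 CPM gave a log2 ratio of -2.87 (-3.04 to -2.71), so the ligand gene was lower in the group in which its receptor gene Eda2r was higher. The ratio ran from -4.39 (without doxorubicin oocyte 4) to -2.22 on leaving out each cell. Without control oocyte 16 the control oocytes kept 1445 of 2697 Eda counts. Among oocytes under 200 CPM of granulosa markers the ratio was -1.74. The table gives 1 row for the gene and does not separate the splice forms. Tnfsf10, which encodes TRAIL, was at 3.44 and 2.34 CPM in the oocyte groups, a log2 ratio of -0.56 (-0.74 to -0.38), and had 0 counts in both granulosa groups.

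Among the adaptors, Traf3, whose product binds the receptor encoded by Eda2r, ran from 0 over a median of 7.86 to 59.1 CPM in control and from 1.47 over a median of 57.8 to 166 CPM in doxorubicin oocytes. The groups overlapped, and 8 of 16 doxorubicin oocytes lay above the highest control oocyte. The log2 ratio was 2.24 (2.18 to 2.30), with 2.05 to 2.44 on leaving out each cell. All 16 doxorubicin oocytes had at least 5 reads of Traf3, among them the 11 with Eda2r. Traf6, another TRAF gene of the same receptor, was at 17.0 and 6.94 CPM, with a log2 ratio of -1.29 (-1.39 to -1.20), and of -0.36 among oocytes under 200 CPM of granulosa markers. Pidd1, a p53 target that encodes a death domain protein, was at 7.46 and 25.1 CPM, with a log2 ratio of 1.75 (1.67 to 1.84), and was found in 7 and 9 of 16 cells. Leaving out 1 cell moved it between 1.14 (without doxorubicin oocyte 4) and 2.70 (without control oocyte 16).

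Among the inhibitors, Tnfaip3, which encodes the ubiquitin-editing enzyme A20, was at 3.0 and 17.3 CPM, with a log2 ratio of 2.53 (2.40 to 2.66), with 2.14 to 3.35 on leaving out each cell. It was found in 6 control and 8 doxorubicin oocytes. Downstream, Casp6, an effector caspase, was found in all 32 oocytes. It ran from 29.5 over a median of 46.1 to 83.3 CPM in control and from 41.0 over a median of 91.6 to 253 CPM in doxorubicin oocytes. Of the doxorubicin oocytes, 9 of 16 were above the highest control oocyte, and the log2 ratio was 1.34 (1.30 to 1.37), with 1.20 to 1.41 on leaving out each cell.

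**Figure D5:**
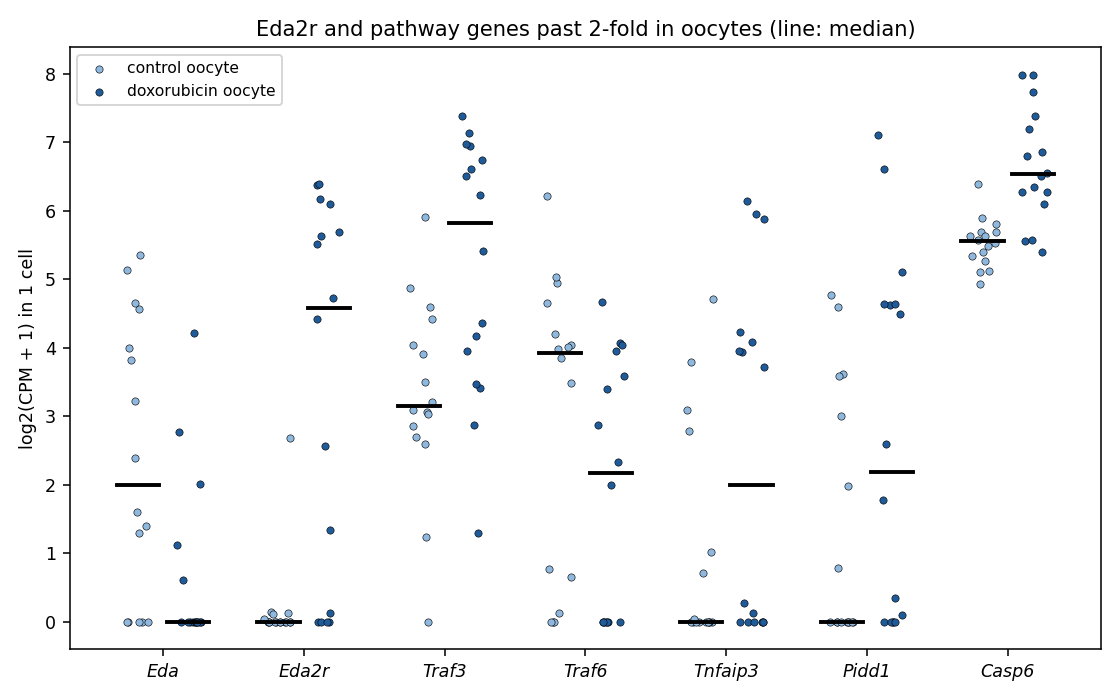
Level per oocyte, as log2(CPM + 1), of Eda2r and the 6 other pathway genes that stayed past 2-fold in oocytes on leaving out each cell; points are cells and lines are medians. Casp6 and Traf3 are higher in most doxorubicin oocytes (medians of 91.6 and 57.8 CPM against 46.1 and 7.86), while Eda has a median of 0 after the drug.

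In granulosa cells 31 of the 42 other pathway genes were at 5 CPM or more. Of these, 2 were at least 2-fold higher and 8 at least 2-fold lower, with a median log2 ratio of -0.60. Over all 12194 genes at this level 20.6% were 2-fold higher and 20% were 2-fold lower, with a median of -0.03. The 2 higher genes were Pidd1, with 0 counts in the control cells and 5.56 CPM in doxorubicin cells (a log2 ratio of at least 8.38, found in 4 of 13 cells), and Rbck1. Of the 4 cells with Pidd1, replicates 6, 10 and 12 had oocyte marker sums of 30169, 15533 and 16959 CPM, above their granulosa sums. Replicate 13 had 374 CPM of oocyte, 1663 CPM of granulosa and 7961 CPM of stroma markers. Without it, 327 of the 796 Pidd1 counts were left. Over cells with more granulosa than oocyte markers the log2 ratio was at least 8.24, from 470 counts against 0. The part of oocyte transcripts in this difference was not tested. Over cells with 5000 CPM or more of granulosa markers Pidd1 had 1 count in 5 doxorubicin cells and 0 in 7 control cells, too few for a ratio, and the median cell of both full groups was at 0. Rbck1 encodes a subunit of the linear ubiquitin ligase that acts at the TNF receptor. It was at 58.4 and 167 CPM, with a log2 ratio of 1.52 (1.49 to 1.55), and 6 of 13 doxorubicin cells were above the highest control cell. Of the lower genes, Daxx, whose product binds Fas, was at 61.2 and 20.1 CPM, with a log2 ratio of -1.61 (-1.67 to -1.55). Mlkl, which encodes the effector of necroptosis, a form of lytic cell death driven by RIPK1 and RIPK3, was at 23.3 and 9.04 CPM, a log2 ratio of -1.37 (-1.46 to -1.28). It was -2.46 without doxorubicin granulosa cell 2. Among cells with more granulosa than oocyte markers Mlkl had 0 counts in the 5 doxorubicin cells, which gives at most -9.22, whereas over the full groups the median cells differed by -0.053 in log2(CPM + 1).

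The control groups also differed in partners of the members, as they did in most genes. Of 32 other pathway genes at 5 CPM or more, 6 were at least 2-fold higher in the oocytes and 15 at least 2-fold lower. Over all 12373 genes at this level 29% were 2-fold higher and 31.3% were 2-fold lower, which is 60.3% either way. Of the pathway genes, Eda, Cflar, Ripk3 and Mlkl are named, chosen after their values were seen. Cflar was at 1.62 CPM in oocytes and 73.6 CPM in granulosa cells, a log2 ratio of -5.51 (-5.67 to -5.34). The necroptosis genes Ripk3 and Mlkl were at 0.823 and 0.705 CPM in oocytes against 41.8 and 23.3 CPM in granulosa cells, with log2 ratios of -5.67 and -5.05. A single oocyte held all but 1 count of each gene: the counting interval became -18.22 to -10.44 for Ripk3 without control oocyte 4, and -17.37 to -9.59 for Mlkl without control oocyte 8. Between median cells, log2(CPM + 1) differed by 0 for Ripk3 and by -0.053 for Mlkl. Eda was in the other direction, with 13.8 CPM in oocytes and 1 count over the control granulosa cells, which gives a counting interval of 8.80 to 16.58 for the log2 ratio. Eda had 0 counts in the doxorubicin granulosa cells.

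For the 3 members found in at least 16 of the 32 oocytes, the most alike genes over these cells were sought by Spearman's rho of CPM. They were Polr2k (0.60), Ndufv2 (0.57) and Picalm (0.57) for Tnfrsf10b. They were Ppard (0.68), Arhgdia (0.65) and 4931428F04Rik (0.64) for Fadd, and 1700096K18Rik (0.69), Zbtb8a (0.65) and Catspere2 (0.61) for Ripk1. These are the highest values among all genes searched, over cells of both groups, and are given as a description only.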

How the data were processed

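Single oocytes and granulosa cells (61 cells) were profiled with a full-length low-input kit. The authors deposited 1 table of estimated counts (expected counts, 34.0% of nonzero values not whole), made, per the submitters' processing notes, with Partek, Bowtie2, HISAT2 and DESeq2 on mm10; roles, versions and annotation are not given in the sources used here. Counts were rounded, summed over each group's cells and divided by all counts to give CPM. A group under 3 counts was set to 3. Group CPM has an exact Poisson interval, ratios a conditional binomial one and shares a Clopper-Pearson one. Members and lists were chosen with earlier results of these data known.

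Named genes are the 7 members, plus listed pathway genes at 5 CPM or more whose log2 ratio stayed at or past 1 on leaving out each cell. The calculation was tested on simulated data. Coordinates and lengths are from GENCODE M21, of the same build as mm10. Alternatives were the cells' mean CPM, their median log2(CPM + 1), edgeR TMM and DESeq2 size factors, filters of 1 and 20 CPM, 2 marker filters and leaving out each cell. Python 3.11.15, numpy 2.4.6, pandas 2.3.3, scipy 1.17.1, matplotlib 3.10.9, R 4.3.3, edgeR 4.0.16 and DESeq2 1.42.0 were used.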

Additional observations from a re-analysis of the deposited data

Results flagged for a closer look

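Of the 7 members, Tnfrsf10b had log2 ratios of doxorubicin over control on opposite sides of 0 in the 2 cell types, whichever cell was left out. So did Daxx, Rbck1 and 5 other pathway genes. The share of all genes that do so was not counted. In granulosa cells 40.6% of all genes at 5 CPM or more were past 2-fold either way. Tnfrsf10b was at -1.48 in oocytes and 1.90 in granulosa cells. Daxx was at 0.21 in oocytes and -1.61 in granulosa cells. Rbck1 was at -0.071 in oocytes and 1.52 in granulosa cells. Daxx and Rbck1 were thus near 0 in oocytes, and past 2-fold in granulosa cells only. Ripk3 (0.94 and -1.47) and Tnfrsf19 (-1.05 and 0.53) were among the others. With 1 sample a group, none of these differences between cell types was tested.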

How the results depend on the processing

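In oocytes the count of members at least 2-fold higher, 1 over all cells, was 2 with the cells' medians (Eda2r and Tnfrsf1a), 2 with a filter of 1 CPM (Eda2r and Fas), and 1 to 2 on leaving out each cell. The count of other pathway genes past 2-fold, 8, was 5 with the cells' medians, 3 with a filter of 20 CPM, 5 among oocytes under 200 CPM of granulosa markers, and 7 to 8 on leaving out each cell. In granulosa cells the 5 members were 3 with either marker filter and 3 to 5 on leaving out each cell. The 10 other pathway genes were 17 over cells whose granulosa markers reached 5000 CPM and 9 to 14 on leaving out each cell. Between the control groups the 4 members past 2-fold were 3 to 5 on leaving out each cell. For members at 5 CPM or more and past 2-fold, the values that changed sign were Fas in granulosa cells (-1.22 among cells with more granulosa than oocyte markers, and -1.32 to 9.38 on leaving out each cell, the latter with 1 control count left), Casp8 in granulosa cells (-0.74 at 5000 CPM of granulosa markers), and, between the control groups, Casp8 (0.063 with the cells' medians) and Eda2r (0.77 among cells with more of their own markers). Of the members' smaller or lower values, those of Tnfrsf1a in oocytes (-0.24), Casp8 in oocytes (-0.30), Tnfrsf1a in granulosa cells (0.024 to 0.14), Fadd in granulosa cells (0.66 to 0.71) and Tnfrsf10b between the control groups (1.23 and 1.79) also changed sign under at least 1 alternative. The causes were not tested. The scaling factors changed no direction of a member past 2-fold. No paired analysis was possible because each group is 1 sample and its result comes from no test. Counting intervals leave out the spread between cells and animals, and members under 5 CPM rest on few cells.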
